A study of Mus musculus with 6 samples.

Results

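A set of 10 genes of the thermogenic program of brown fat (Ucp1, Cidea, Dio2, Ppargc1a, Prdm16, Elovl3, Fabp3, Zic1, Adrb3 and Otop1) was followed through RNA-seq libraries of the mouse aorta. They were chosen by gene symbol, and all 10 were found among the 29752 genes in the files. The libraries came from C57BL/6 mice aged 15 weeks that had received a normal diet for 7 weeks, with 3 libraries labelled wild type (wild type 1 to 3) and 3 labelled PALMD+/- (heterozygote 1 to 3). The label PALMD+/- stands for 1 altered copy of Palmd, which encodes palmdelphin. How that copy was altered, and whether each library came from a separate mouse, is not given in the sources used here, so the p-values measure only the spread between these samples. Values are FPKM, reads scaled to transcript length and to the reads of the library, and can be compared between genes.

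Brown adipocytes burn fuel to make heat. Noradrenaline from sympathetic nerves acts on beta-adrenergic receptors, cyclic AMP rises in the cell, lipid is broken down, and uncoupling protein in the inner mitochondrial membrane lets protons flow back without making ATP. In rodents the thoracic aorta is wrapped in perivascular fat that closely resembles brown fat. A bulk library of a whole vessel mixes that fat with smooth muscle, endothelium and nerve, and a lower value of a fat gene can mean fewer cells of that type or less RNA per cell, which cannot be told apart here.

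All 10 genes had 6 values, and 9 of them reached the level needed for testing (at least 1 FPKM in at least 3 libraries). In no member were the 3 heterozygote values all above or all below the 3 wild-type values. Among the 12620 genes tested, 12.9% had such groups that did not overlap, 7.80% with the heterozygotes higher and 5.12% with them lower. No member passed the test between genotypes (limma on log2(FPKM + 1), Benjamini-Hochberg adjusted p under 0.05), and the share of all tested genes that passed was 0%. Without adjustment 820 of those genes had a limma p under 0.05, and limma voom on recovered reads also passed 0 genes and gave 815. What the data did show was a large spread between libraries of 1 genotype. RNA of Ucp1, the heat-producing protein itself, ran over a 22.6-fold range, and Otop1 and Cidea ran with it, whereas Prdm16 ran in the opposite order.

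The sequences just upstream of 3 members are shown because these 3 genes had different patterns over the same 6 libraries. Ucp1 set the main pattern, Dio2 left it in 1 library, and Prdm16 opposed it. Each is the 250 bases before the RefSeq gene start (GRCm38.p6), written 5′ to 3′ on the strand of the gene. Capitals mark TGACG, the core of the cyclic AMP response element, and AGGTCA, the half-site of nuclear receptors, wherever a search of both strands found them. The Ucp1 window is chr8:83290098-83290347 on the plus strand, the Dio2 window is chr12:90739039-90739288 on the minus strand, and the Prdm16 window is chr4:154636874-154637123 on the minus strand.
Ucp1: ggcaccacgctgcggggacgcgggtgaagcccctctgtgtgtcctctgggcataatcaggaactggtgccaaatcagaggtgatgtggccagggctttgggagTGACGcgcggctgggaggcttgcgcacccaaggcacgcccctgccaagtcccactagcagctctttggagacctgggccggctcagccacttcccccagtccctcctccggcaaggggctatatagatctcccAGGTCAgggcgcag
Dio2: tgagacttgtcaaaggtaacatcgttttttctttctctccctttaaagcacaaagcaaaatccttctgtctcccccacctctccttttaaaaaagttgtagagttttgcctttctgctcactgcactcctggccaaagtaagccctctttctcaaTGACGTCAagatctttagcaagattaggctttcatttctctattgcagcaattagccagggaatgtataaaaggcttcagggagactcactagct
Prdm16: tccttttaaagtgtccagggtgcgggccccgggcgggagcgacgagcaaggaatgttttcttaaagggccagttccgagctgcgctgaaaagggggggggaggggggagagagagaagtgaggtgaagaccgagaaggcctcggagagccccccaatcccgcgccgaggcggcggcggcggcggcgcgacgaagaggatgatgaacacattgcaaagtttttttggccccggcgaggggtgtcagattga

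In the Ucp1 window TGACG begins at position -147 and AGGTCA at -14, counted back from the RefSeq gene start. That start can differ from the annotated gene span given below with the FPKM values. The span of Dio2 ends at 90738438 and does not reach its window. The Otop1 window lies inside the span of Otop1, and some other windows overlap theirs in part. Dio2 holds the whole palindromic element TGACGTCA, in which TGACG on both strands overlaps, from position -95, and a TATAAA box from -30. Prdm16 holds neither of the marked motifs and has a GGGCGG box from position -220, inside a stretch rich in G and C. Windows of 7 members from the RefSeq table used were counted. Cidea was left out of this count with no reason recorded, and no match to a searched motif was listed for it. Counting Cidea as a window with no match would lower the share given next. No excess over all windows is therefore read from that share. TGACG lay in 4 of these 7 windows (Ucp1, Dio2, Fabp3 and Ppargc1a), against 17.8% of 32851 windows of the same length in that table. The whole TGACGTCA was in 1.55% of those windows, AGGTCA in 14.0%, TATAAA in 12.4% and GGGCGG in 32.7%, both strands searched. These are matches of letters, and no binding was measured.

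Libraries had similar depth, with the authors' values divided by 17283952 to 18372131 reads, and 1 read on a gene of 2 kb was worth 0.0272 to 0.0289 FPKM. Smooth muscle markers, the check of the labelled tissue, summed to between 4646 and 10062 FPKM, so every library held abundant vessel wall RNA. Heterozygote 2 stood apart, and the members and gene lists that it moves are also given without it. Its mean correlation with the other libraries over all genes was 0.964, against 0.981 to 0.984 for each of the others, and it had the lowest level of 6 of 6 smooth muscle markers and the highest of 5 of 5 Schwann cell markers. White adipocyte markers, such as Adipoq and Lep, summed to 2437 to 5641 FPKM in wild type and 2002 to 6614 FPKM in the heterozygotes. Of these 12 markers, 10 were lowest in heterozygote 1 and 10 were highest in heterozygote 2. Palmd was at 5.49, 7.88 and 10.1 FPKM in wild type 1 to 3 and at 5.31, 7.19 and 6.21 FPKM in heterozygote 1 to 3 (exact two-sided permutation p = 0.4). Without knowing which part of the gene was altered, this level does not check the labels.

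By mean RNA level, Ucp1 was the most abundant member. Ucp1 (ENSMUSG00000031710, GRCm38 chromosome 8, 83290352 to 83298452, plus strand) is the proton carrier that uncouples respiration. It was at 117, 682 and 489 FPKM in wild type 1 to 3 and at 34.9, 790.3 and 153 FPKM in heterozygote 1 to 3. Heterozygote 2 was the highest and heterozygote 1 the lowest of all 6, so that the heterozygotes enclosed the wild-type range. In heterozygote 2 Ucp1 ranked 28 among the 29752 genes, and in heterozygote 1 it ranked 1333. Behind these values stood between 1043 and 22348 reads, so counting error was small beside the differences between libraries. The means were 429 ± 287 FPKM (SD, n = 3) in wild type and 326 ± 406 FPKM (SD, n = 3) in the heterozygotes. The fitted log2 fold change was -1.06 (SE 1.19), with a 95% interval from -3.92 to 1.80 and an adjusted p of 0.939 by limma. An exact permutation test, two-sided, gave p = 0.7. With 3 libraries against 3 that test cannot give less than 0.1. The interval reaches from 0.0659 to 3.49 times the wild-type level on the FPKM + 1 scale, which covers both much lower and higher levels in the heterozygotes. Without heterozygote 2 the log2 fold change was -2.20, and without heterozygote 1 it was 0.035.

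Otop1 encodes otopetrin 1, a proton-selective ion channel known from the inner ear and from sour taste cells. Otop1 (ENSMUSG00000051596, chromosome 5, 38275972 to 38304217, plus strand) was at 4.78, 14.0 and 16.8 FPKM in wild type 1 to 3 and at 1.43, 29.0 and 5.22 FPKM in heterozygote 1 to 3. As for Ucp1, heterozygote 1 was lowest and heterozygote 2 highest, a 20.2-fold range, and the groups overlapped. Group means were almost equal, 11.8 ± 6.28 FPKM (SD, n = 3) in wild type and 11.9 ± 14.9 FPKM (SD, n = 3) in the heterozygotes. The log2 fold change was -0.59 (SE 0.92; limma adjusted p = 0.956), within a 95% interval of -2.81 to 1.64. It lay below 0 although the arithmetic means were level, because the fit averages logarithms, in which the low value of heterozygote 1 weighs more.

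Cidea encodes a lipid droplet protein that helps droplets exchange lipid and is abundant in brown fat. Cidea (ENSMUSG00000024526, chromosome 18, 67343604 to 67367785, plus strand) was at 54.6, 168 and 179 FPKM in wild type 1 to 3 and at 19.1, 227 and 61.5 FPKM in heterozygote 1 to 3. Again heterozygote 1 was lowest and heterozygote 2 highest, the groups overlapped, and the range was 11.9-fold. The means were 134 ± 68.7 FPKM (SD, n = 3) and 103 ± 110.0 FPKM (SD, n = 3), and the log2 fold change was -0.85 (SE 0.91; limma adjusted p = 0.934), within a 95% interval of -3.05 to 1.34. An RNA gene on the opposite strand, B430212C06Rik, was at 0.162 to 1.14 FPKM. The library kit is not described as keeping strand, but that level is small beside Cidea's own.

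Fabp3 encodes a small carrier of fatty acids in the cytoplasm of heart, muscle and brown fat. Fabp3 (ENSMUSG00000028773, chromosome 4, 130308595 to 130315463, plus strand) was at 26.3, 94.2 and 42.0 FPKM in wild type 1 to 3 and at 11.2, 32.6 and 16.7 FPKM in heterozygote 1 to 3. Heterozygotes 1 and 3 lay below every wild-type library, and heterozygote 2 lay between wild type 1 and wild type 3. The means were 54.2 ± 35.6 FPKM (SD, n = 3) and 20.2 ± 11.1 FPKM (SD, n = 3), so the heterozygote mean was 37.2% of the wild-type mean. On the log2 scale the fitted difference was -1.32 (SE 0.54), within a 95% interval of -2.62 to -0.015. By limma it had an unadjusted p of 0.0481 and an adjusted p of 0.765, and an exact permutation test, two-sided, gave p = 0.2. Of the members, 2 (Fabp3 and Dio2) had an unadjusted limma p under 0.05 with a lower level in the heterozygotes, as had 2.44% of all tested genes. With a higher level 0 members had one, against 4.06% of all tested genes. The count of 2 became 1 with no filter, with quantile normalization or without heterozygote 3 (Dio2 each time), and with a replicate block (Fabp3). It became 0 without wild type 2, wild type 3 or heterozygote 1. Without heterozygote 2 the count was 4, with Fabp3 among them but not Dio2. Fabp3 shares sequence with the pseudogene Fabp3-ps1, which was at 0 to 0.812 FPKM. The annotated span of Fabp3 overlaps those of Zcchc17 and Gm10570 on the other strand, and overlap of exons was not examined. Zcchc17 varied little, from 6.36 to 7.30 FPKM, and Gm10570 was at 0.320 to 0.854 FPKM.

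Elovl3 encodes an enzyme that lengthens very long fatty acids and responds to cold in brown fat. Elovl3 (ENSMUSG00000038754, chromosome 19, 46131897 to 46135694, plus strand) was at 0.0732, 4.34 and 1.49 FPKM in wild type 1 to 3 and was listed at 0 in heterozygote 1, with 1.86 and 1.32 FPKM in heterozygote 2 and 3. Both groups held 1 library close to 0 and 2 above 1 FPKM, so they overlapped. With the annotated length, 3 reads in heterozygote 1 would give 0.0832 FPKM, the most that its 0 allows when counting error alone is considered. The log2 fold change was -0.37 (SE 0.65; limma adjusted p = 0.962), within a 95% interval of -1.92 to 1.19.

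**Figure D1:**
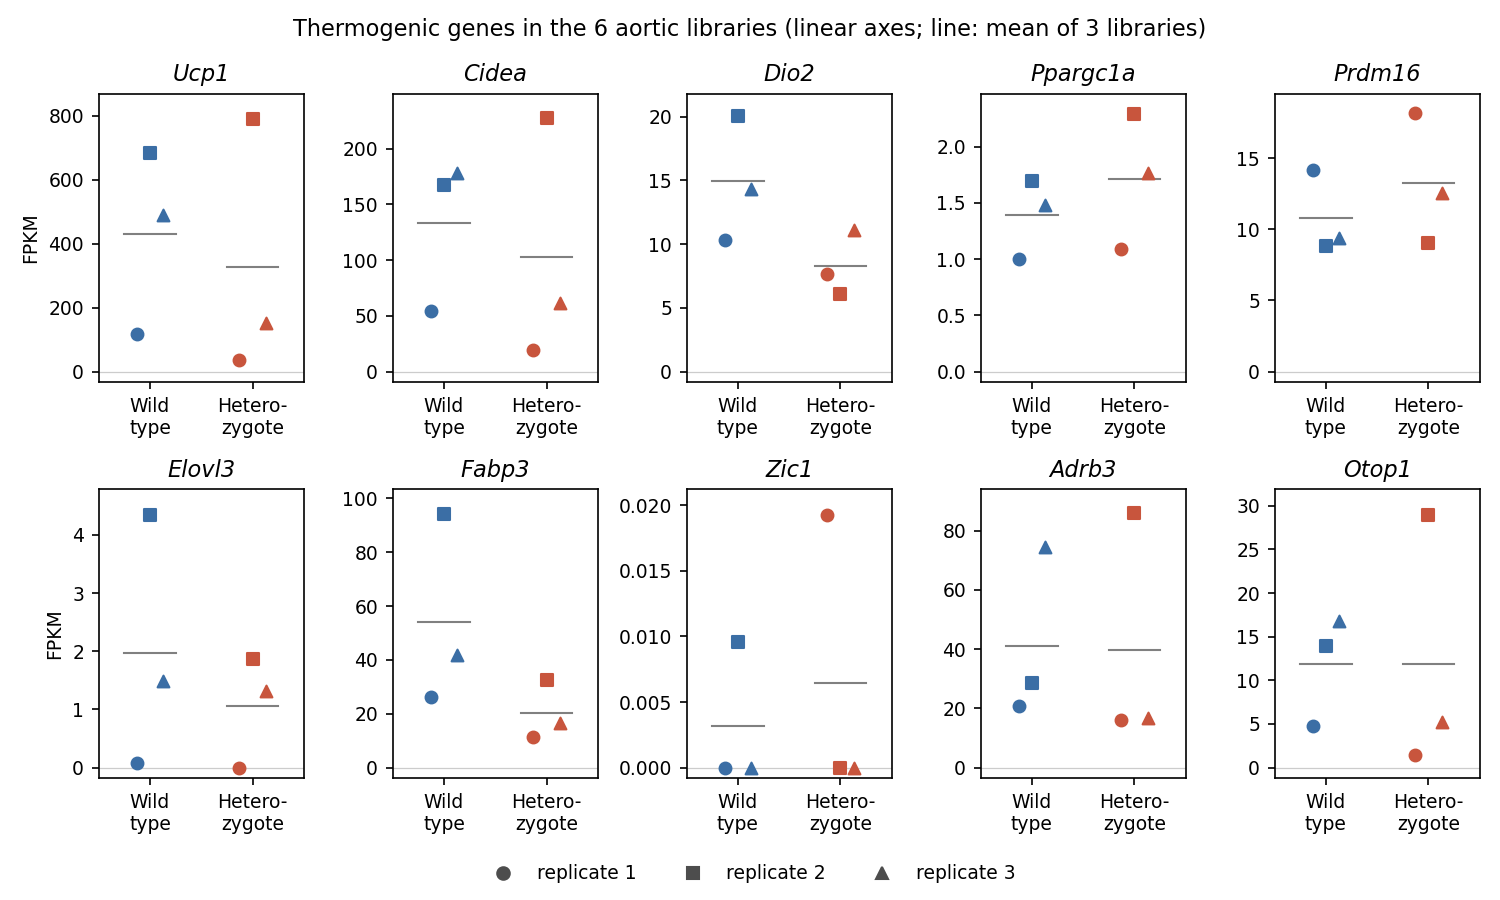
FPKM of each member (linear axis, 1 panel per gene, each with its own scale) in each of the 6 libraries, wild type beside heterozygote, with 1 point per library, the replicate number as the symbol and a grey line at the mean of 3 libraries. The points of the 2 genotypes overlap in every panel, Ucp1 reaches from 34.9 to 790.3 FPKM, and Zic1 stays at or below the level of 2 reads.

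The signals that switch on the program came next. Adrb3 encodes the beta-3 adrenergic receptor, the main receptor for noradrenaline on rodent fat cells. Adrb3 (ENSMUSG00000031489, chromosome 8, 27225776 to 27250616, minus strand) was at 20.6, 28.4 and 74.4 FPKM in wild type 1 to 3 and at 16.0, 85.9 and 16.8 FPKM in heterozygote 1 to 3. Wild type 3 and heterozygote 2 were high and the other 4 libraries lay close together at a low level. The means were 41.2 ± 29.0 FPKM (SD, n = 3) and 39.6 ± 40.1 FPKM (SD, n = 3), and the log2 fold change was -0.29 (SE 0.75; limma adjusted p = 0.977), within a 95% interval of -2.09 to 1.51. The related receptor gene Adrb1 was far lower per length, at 0.396 to 3.90 FPKM.

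Wild type 3 and heterozygote 2, the pair with high Adrb3, also had the most RNA of the sympathetic neuron markers Npy, Th and Dbh. Npy, which encodes a peptide released with noradrenaline, was at 0.677, 0.0962 and 21.4 FPKM in wild type 1 to 3 and at 0.0968, 208 and 1.06 FPKM in heterozygote 1 to 3. Th and Dbh encode enzymes of noradrenaline synthesis. Wild type 3 had 3.81 FPKM of Th, heterozygote 2 had 66.7 FPKM, and Th was at or below 0.324 FPKM in the other 4 libraries. For Dbh the same libraries had 5.88 and 120.4 FPKM, and it was at or below 0.407 FPKM in the other 4 libraries. The part of these cells in the level of Adrb3 was not tested.

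Dio2 encodes the type 2 deiodinase, which makes active thyroid hormone inside the cell and whose promoter is shown above with its cyclic AMP response element. Dio2 (ENSMUSG00000007682, chromosome 12, 90724552 to 90738438, minus strand) was at 10.3, 20.1 and 14.3 FPKM in wild type 1 to 3 and at 7.64, 6.11 and 11.1 FPKM in heterozygote 1 to 3. Heterozygote 3 lay just above wild type 1 and the other 2 heterozygotes lay below all wild-type libraries. The means were 14.9 ± 4.89 FPKM (SD, n = 3) and 8.29 ± 2.56 FPKM (SD, n = 3), the heterozygote mean being 55.5% of the wild-type mean. On the log2 scale the fitted difference was -0.77 (SE 0.28), within a 95% interval of -1.44 to -0.091. By limma it had an unadjusted p of 0.0317 and an adjusted p of 0.731, and an exact permutation test, two-sided, gave p = 0.2. Dio2 was lowest in heterozygote 2, the library with the most Ucp1.

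Ppargc1a encodes PGC-1alpha, the coactivator that drives mitochondrial biogenesis and Ucp1 transcription. Ppargc1a (ENSMUSG00000029167, chromosome 5, 51454250 to 51567726, minus strand) was at 1.00, 1.69 and 1.48 FPKM in wild type 1 to 3 and at 1.09, 2.29 and 1.77 FPKM in heterozygote 1 to 3. It was low everywhere, the groups overlapped through heterozygote 1, and the range was 2.28-fold. The means were 1.39 ± 0.353 FPKM (SD, n = 3) and 1.72 ± 0.603 FPKM (SD, n = 3), and the log2 fold change was 0.17 (SE 0.20; limma adjusted p = 0.943), within a 95% interval of -0.32 to 0.66.

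Prdm16 encodes a zinc-finger regulator that directs precursors to the brown fat fate and is also expressed in arterial wall cells. Prdm16 (ENSMUSG00000039410, chromosome 4, 154316125 to 154636873, minus strand) was at 14.2, 8.84 and 9.37 FPKM in wild type 1 to 3 and at 18.1, 9.03 and 12.5 FPKM in heterozygote 1 to 3. Heterozygote 1, the library with the least Ucp1, had the most Prdm16, while wild type 2, wild type 3 and heterozygote 2 lay close together at the bottom. The means were 10.8 ± 2.93 FPKM (SD, n = 3) and 13.2 ± 4.60 FPKM (SD, n = 3), and the log2 fold change was 0.25 (SE 0.27; limma adjusted p = 0.937), within a 95% interval of -0.41 to 0.91.

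Zic1 encodes a zinc-finger factor used as a marker of interscapular brown fat. Zic1 (ENSMUSG00000032368, chromosome 9, 91358058 to 91365810, minus strand) had 0, 1 and 0 reads in wild type 1 to 3 and 2, 0 and 0 reads in heterozygote 1 to 3. Every library was under 3 reads, a level of 0.0287 to 0.0305 FPKM, which is the most that a count of 0 allows when counting error alone is considered. With so few reads no direction between genotypes is read from it. Its relatives Zic2 and Zic5 were also low, at 0.0804 to 0.171 FPKM and 0 to 0.0795 FPKM.

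Over all 10 members the median log2 fold change was -0.48, with 7 of the 9 tested members below 0, against a median of 0.014 over all tested genes. That direction rested on 1 library. Without heterozygote 1 the median of the members was 0.022 and 2 of the 9 were below 0, and without heterozygote 2 the median was -0.87 and 7 of the 9 were below 0. Without heterozygote 2, Ucp1, Cidea, Fabp3 and Otop1 had an unadjusted limma p under 0.05, as had 1762 of the 12620 tested genes, and the smallest adjusted p of a member was 0.293. Otop1 was then at a log2 fold change of -1.57, Cidea at -1.75 and Fabp3 at -1.71. Dio2 and Fabp3 stayed below 0, and Prdm16 and Ppargc1a above 0, with each library left out in turn, but none of the 4 passed the adjusted threshold in any of these fits. White adipocyte markers took a like course, with 9 of 12 below 0 and a median of -0.33, which was -0.85 without heterozygote 2 and 0.030 without heterozygote 1. Their part in the values of the members was not tested.

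**Figure D2:**
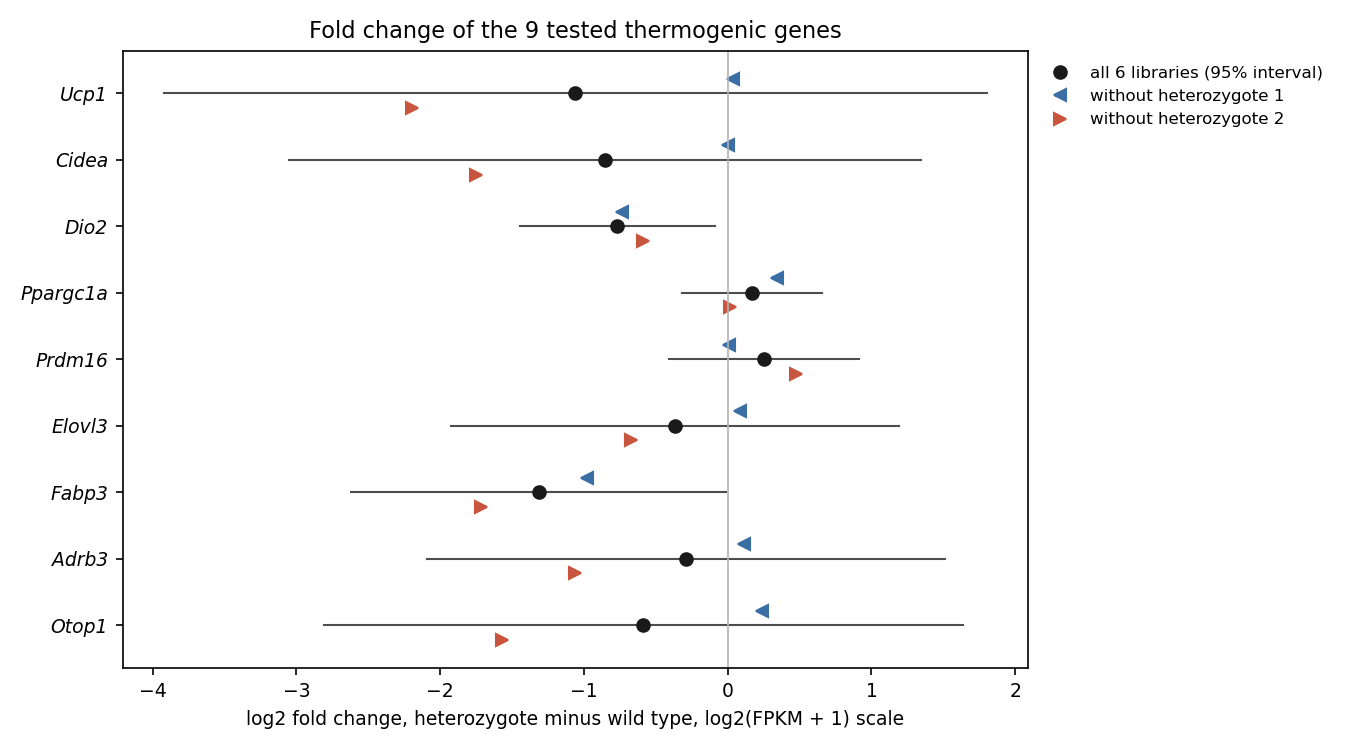
Log2 fold change (heterozygote minus wild type, on log2(FPKM + 1)) of the 9 tested members with the 95% interval, as bars around the points, and the values without heterozygote 1 or without heterozygote 2 as triangles. The intervals of Dio2 and Fabp3 end at -0.091 and -0.015, those of the others include 0, and the values of Ucp1, Cidea and Otop1 move widely when heterozygote 1 or 2 is left out.

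The members were next ordered by Ucp1 to see which of them shared its pattern over the 6 libraries. In all, 8 relations were tested on log2(FPKM + 1), with exact permutation p-values. The members were chosen with earlier results of these data known, so these p-values describe the relations and are not independent support. The libraries were unevenly spaced by Ucp1. The widest gap in log2 Ucp1, 1.72, lay between heterozygote 1 and the next library, and the gap in the middle was 1.67. Apart from heterozygote 1, libraries on the same side of the middle gap lay closer together. A high r can thus come from a graded relation or from a difference between low and high libraries. Cidea had a Pearson r of 0.99 with Ucp1 (exact permutation p = 0.00278, adjusted p = 0.0111) and a Spearman rho of 0.94 (exact permutation p = 0.0167, adjusted p = 0.0333). Otop1 had a Pearson r of 0.98 (exact permutation p = 0.00417, adjusted p = 0.0111) and a Spearman rho of 0.94 (exact permutation p = 0.0167, adjusted p = 0.0333). Without heterozygote 1 and heterozygote 2, the 2 libraries farthest from the median of Ucp1, r was 0.98 for Cidea and 0.96 for Otop1. The few libraries left lay on both sides of the middle gap. Leaving out these 2 libraries therefore cannot decide whether a relation with Ucp1 was graded.

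Prdm16 had a Pearson r of -0.99 with Ucp1 (exact permutation p = 0.00278, adjusted p = 0.0111) and a Spearman rho of -0.94 (exact permutation p = 0.0167, adjusted p = 0.0333). Without the 2 farthest libraries its r was again -0.99. Prdm16 was thus the member whose RNA was lowest where Ucp1 was high, in both genotypes. For Elovl3 the Pearson r was 0.86 (exact permutation p = 0.0194, adjusted p = 0.0389), the Spearman rho was 0.94 (exact permutation p = 0.0167, adjusted p = 0.0333), and r without the 2 libraries was 0.86.

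The other relations did not pass after adjustment. Fabp3 had a Pearson r of 0.83 (exact permutation p = 0.0375, adjusted p = 0.06) and a Spearman rho of 0.77 (exact permutation p = 0.103, adjusted p = 0.117), with r of 0.88 without the 2 libraries. Adrb3 had a Pearson r of 0.79 (exact permutation p = 0.0667, adjusted p = 0.0889) and a Spearman rho of 0.89 (exact permutation p = 0.0333, adjusted p = 0.0533), with r of 0.66 without the 2 libraries. Ppargc1a, whose product is a coactivator of Ucp1, had a Pearson r of 0.76 (exact permutation p = 0.0861, adjusted p = 0.0984) and a Spearman rho of 0.77 (exact permutation p = 0.103, adjusted p = 0.117), with r of 0.51 without the 2 libraries. Dio2 had a Pearson r of 0.34 (exact permutation p = 0.503, adjusted p = 0.503) and a Spearman rho of 0.14 (exact permutation p = 0.803, adjusted p = 0.803). Its r was 0.95 without the 2 libraries and 0.97 without heterozygote 2 alone, so the low pooled value rested on that library. In the 5 libraries other than heterozygote 2, Dio2 and Ucp1 stood in the same order, an observation made after the values were seen.

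**Figure D3:**
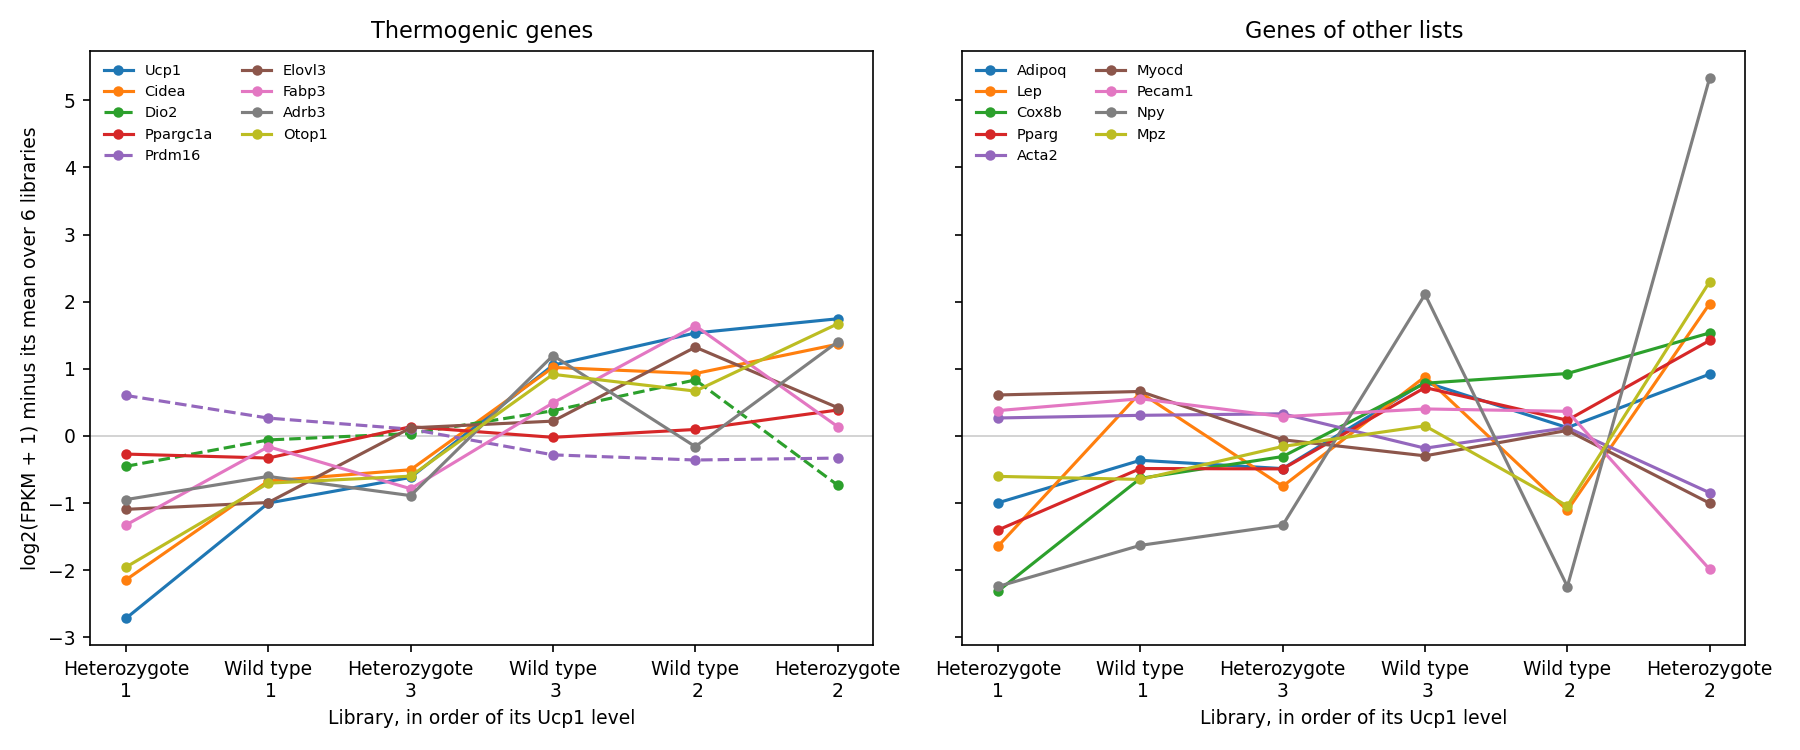
Values of log2(FPKM + 1) minus their mean over the 6 libraries, with libraries ordered from the lowest to the highest Ucp1 and 1 line per gene, for the 9 tested members (left) and for genes of other lists (right). Cidea and Otop1 climb with Ucp1 apart from a small step down at wild type 2, Prdm16 descends, Dio2 climbs until heterozygote 2, where it is lowest, and on the right the nerve peptide Npy is highest in heterozygote 2.

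Among 11402 tested genes with assigned names, the 10 most like Ucp1 over the 6 libraries were, in order, Cidea, Pla1a, Cox8b, Cib2, Dhrs11, Gpx3, Cox7a1, Car2, Slc25a20 and Ndufab1, with Pearson r from 0.985 to 0.993. From the highest r down, Cidea ranked 1 and Otop1 22, whereas Prdm16 ranked 11399. Elovl3 ranked 577, Fabp3 722, Adrb3 966, Ppargc1a 1107 and Dio2 2934, so many other genes had an r as high as that of Elovl3. Cox8b and Cox7a1 encode subunits of cytochrome c oxidase, Slc25a20 the mitochondrial carrier of acylcarnitines, and Ndufab1 the mitochondrial acyl carrier protein. Cox8b was at 46.1, 138 and 125 FPKM in wild type 1 to 3 and at 13.7, 210.2 and 57.9 FPKM in heterozygote 1 to 3. Cox7a1 was at 11.9, 36.6 and 29.9 FPKM in wild type 1 to 3 and at 4.20, 55.2 and 10.7 FPKM in heterozygote 1 to 3. Both were lowest in heterozygote 1 and highest in heterozygote 2, as Ucp1 was. This ranking describes 6 libraries of similar depth and carries no test.

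Of the 12 white adipocyte markers, 8 were lowest in heterozygote 1 and highest in heterozygote 2, as Ucp1 was. The members were therefore set beside 1 of these markers, the fat hormone Adipoq. Brown and white adipocytes both make it, so that list is not of white fat alone. Adipoq was at 133, 187 and 299 FPKM in wild type 1 to 3 and at 85.3, 324.9 and 122 FPKM in heterozygote 1 to 3. The ratio of Ucp1 to Adipoq was 0.881, 3.65 and 1.64 in wild type 1 to 3 and 0.409, 2.43 and 1.25 in heterozygote 1 to 3. It was highest in wild type 2 and lowest in heterozygote 1, and the genotypes overlapped. Lep, a hormone made mainly by white adipocytes, was at 12.5, 3.00 and 14.9 FPKM in wild type 1 to 3 and at 1.76, 32.8 and 4.13 FPKM in heterozygote 1 to 3. Wild type 2 thus combined the highest Ucp1 per Adipoq with a low Lep, whereas heterozygote 2 was high in both. Cidea relative to Adipoq ran from 0.223 in heterozygote 1 to 0.898 in wild type 2, a narrower range than that of Ucp1. Prdm16 relative to Adipoq ran the other way, from 0.0278 in heterozygote 2 to 0.213 in heterozygote 1. Division by Adipoq gives such an order to any gene that does not rise with Adipoq. This ratio thus adds little to the levels of Prdm16 itself. Smooth muscle markers summed to 9836, 8653 and 6972 FPKM in wild type 1 to 3 and to 9847, 4646 and 10062 FPKM in heterozygote 1 to 3, lowest in the 2 libraries with the most Adipoq. The part of a shifting share of fat and vessel wall in these levels was not tested.

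**Figure D4:**
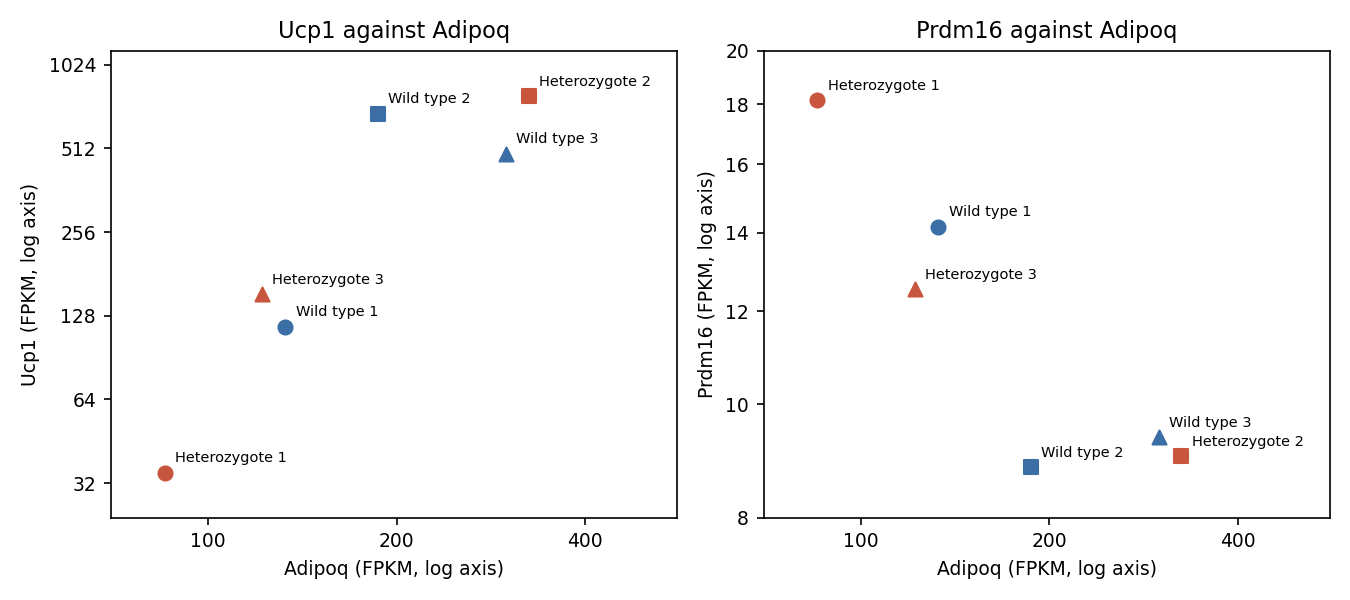
Ucp1 (left) and Prdm16 (right) against Adipoq, all in FPKM on log axes, 1 point per library. Ucp1 is lowest in heterozygote 1, which has the least Adipoq (85.3 FPKM), and wild type 2 lies high for its Adipoq (187 FPKM), while Prdm16 is highest in heterozygote 1 and lowest in the 3 libraries with the most Adipoq.

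The pattern lowest in heterozygote 1 and highest in heterozygote 2 was found in 4 of the 9 tested members (Ucp1, Cidea, Adrb3 and Otop1). This is the pattern of Ucp1 itself in these libraries, so the count among the members is a description and not independent support. The same pattern was found in 9 of 16 tested genes of a list of other brown adipocyte genes and in 8 of 12 white adipocyte markers, against 9.55% of all 12620 tested genes. In that list of 20 other brown adipocyte genes, 0 genes passed the adjusted threshold, 0 had groups that did not overlap, and the median log2 fold change was -0.21. That median was -0.92 without heterozygote 2 and 0.12 without heterozygote 1. Pdk4, a kinase that holds back pyruvate oxidation, had the smallest p there, at a mean of 59.2 FPKM in wild type and 29.6 FPKM in the heterozygotes (limma adjusted p = 0.731). Gk, the glycerol kinase, had means of 10.2 and 5.51 FPKM (limma adjusted p = 0.817). Of the factors that mark brown precursors, Ebf2 was at 1.94 to 5.19 FPKM and Lhx8 at 0.281 to 1.14 FPKM in all libraries, so Lhx8, like Zic1, stayed under the level tested. The list of 7 beige adipocyte genes had a median of -0.025, with 0 of 4 tested genes past the threshold. Its member Slc27a1 had means of 40.2 FPKM in wild type and 70.2 FPKM in the heterozygotes, with 142.8 FPKM in heterozygote 2, and Tbx1 had means of 8.95 and 8.29 FPKM.

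Genes upstream of the members gave no call either. In the list of 13 adrenergic and cyclic AMP genes, all 13 were tested, 0 passed, and the median log2 fold change was -0.11. Pde4d, a phosphodiesterase that breaks down cyclic AMP, had the smallest p there, with means of 2.13 and 1.55 FPKM (limma adjusted p = 0.861). In the list of 17 transcriptional partners 0 passed and the median was -0.050, or -0.28 without heterozygote 2. Hdac3, a histone deacetylase, was the 1 gene in it whose groups did not overlap, with means of 14.8 and 18.0 FPKM (limma adjusted p = 0.720). Foxc2, a factor linked to brown fat, had means of 36.9 FPKM in wild type and 22.8 FPKM in the heterozygotes (limma adjusted p = 0.810). Irf4, another such factor, was at 1.64, 1.43 and 10.1 FPKM in wild type 1 to 3 and at 1.21, 2.04 and 1.38 FPKM in heterozygote 1 to 3, so that wild type 3 alone was high (limma adjusted p = 0.914).

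The thyroid hormone axis, which Dio2 feeds, held the listed gene with the smallest p. Thra, the receptor alpha for thyroid hormone, had means of 33.7 FPKM in wild type and 48.0 FPKM in the heterozygotes, and its groups did not overlap. Its log2 fold change was 0.50 (SE 0.11, limma adjusted p = 0.548), so it did not pass. Of the 9 genes of the axis 7 were tested, 0 passed, and the median was 0.040. Thrb, the other receptor gene, had means of 7.49 and 8.73 FPKM, and Klf9, a gene that responds to the hormone, 57.4 and 46.3 FPKM. Dio1 was at 0 in all libraries and Dio3 at or below 0.0855 FPKM, so that Dio2 was the only deiodinase above the level tested.

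Routes that make heat without uncoupling protein were listed as well. Of 10 such genes 7 were tested, 0 passed, and the median was 0.048. Ckb, a creatine kinase of the creatine cycle, had means of 46.9 and 68.5 FPKM (limma adjusted p = 0.616), and Gamt, which makes creatine, 9.78 and 13.4 FPKM (limma adjusted p = 0.596). The groups of both did not overlap, 2 of the 7 tested genes, where 7.80% of all tested genes were higher in the heterozygotes in this way. Lipolysis and fatty acid supply, with 9 genes all tested, had 0 past the threshold and a median of -0.25, which was -0.67 without heterozygote 2 and 0.023 without heterozygote 1. Its genes Angptl4 and Cd36 had means of 31.0 and 160 FPKM in wild type and 18.3 and 125 FPKM in the heterozygotes. Among 9 secreted factors of brown fat 5 were tested, 0 passed, and the median was -0.0099. Gdf15, a stress hormone, was the 1 whose groups did not overlap, with means of 1.38 and 0.762 FPKM (limma adjusted p = 0.810).

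Relatives of the members served as a comparison within each protein family. Of 30 listed relatives 26 had values, 14 were tested and 0 passed. The median log2 fold change was -0.016 over the 26 with values, which include genes under the level tested. Over the 14 tested relatives it was -0.28, with 11 below 0, and -0.41 without heterozygote 2. Ucp2, which is broadly expressed, stayed between 11.0 and 15.2 FPKM, whereas Ucp3, the muscle and brown fat relative, ranged from 1.20 to 23.5 FPKM. Cidec, the lipid droplet relative of Cidea in white fat, ranged from 118 to 397 FPKM, while Cideb was at or below 0.426 FPKM. Elovl1 and Elovl5 were at 18.0 to 32.1 and 27.4 to 59.3 FPKM, far above Elovl3, and Elovl6 at 2.08 to 67.2 FPKM had a wide range like that of Ucp1. Fabp4, the main fatty acid carrier of fat cells, ranged from 108 to 543 FPKM. Fabp7, a carrier of nerve support cells, was at or below 25.5 FPKM, its highest value being in heterozygote 2. Otop2 was at 0 in all libraries and Otop3 at or below 0.0954 FPKM, so Otop1 was the otopetrin found here. Without heterozygote 1 or 2 the medians over all listed genes of the beige, adrenergic, secreted, thyroid, heat-cycle and family lists lay between -0.17 and 0.093.

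Fabp3 is abundant in heart and skeletal muscle, and markers of cardiac muscle summed to 9.31 to 19.7 FPKM and those of skeletal muscle to 3.74 to 6.05 FPKM over the 6 libraries. Their part in the level of Fabp3 was not tested. In heterozygote 2, where Dio2 was lowest, endothelial markers summed to 244 FPKM against 680 to 762 FPKM in wild type, and cartilage markers to 104 FPKM against 841 to 965 FPKM. Schwann cell markers summed to 70.7 FPKM in heterozygote 2 against 14.3 to 20.7 FPKM in wild type. The part of these cells in the level of Dio2 was not tested.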

How the data were processed

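Polyadenylated RNA of 6 aortic samples was sequenced, per the labels' protocols, with a kit not described as keeping strand. FPKM values were calculated by the authors and deposited with 1 file per library and 29752 genes. Whether reads or fragments were counted is not stated, and the unit was inferred from the values. HISAT2 2.1.0, TopHat2, Bowtie2 2.2.3 and the build GRCm38 appear in the submitters' processing notes, with no role given. Neither counting tool nor annotation is named there.

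Each value times the exon-union length in GENCODE M21 (29687 identifiers found) was a whole number of reads, within 0.01 reads, for 94.5% to 94.8% of genes with few reads. Read counts came from this. They were not whole for Cidea and Elovl3, so none are given for those genes. Titles gave the groups. The heterozygotes carry other numbers in the file headers, with the same genotype. No batch is named.

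limma 3.58.1 (R 4.3.3) with a mean-variance trend was fitted to log2(FPKM + 1), heterozygote minus wild type, for genes that reached 1 FPKM in 3 or more libraries. P-values were Benjamini-Hochberg adjusted over all tested genes. For single values an exact permutation test, two-sided, was run in Python 3.11.15 (scipy 1.17.1). Promoter windows came from the RefSeq table of GRCm38.p6. The members and gene lists were chosen with earlier results of these data known, so lists carry counts and medians over all listed genes and no test. The p-values of single members, and of their relations with Ucp1, carry the same limit. All members were named. Of each other list, up to 4 genes with the smallest p could be named, of the families any relative, and the 10 genes most like Ucp1. Ebf2, Lhx8 and the lists' genes at or near 0 were named after their values were seen. Alternatives were a pseudocount of 0.1, no filter, TPM scaling, quantile normalization, a replicate block, limma voom on the recovered reads, and each library left out.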

Additional observations from a re-analysis of the deposited data

How the results depend on the processing

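No member passed the adjusted threshold under any alternative run. Over all genes, 0 passed with both groups complete under every scaling, filter, pseudocount and model tried, and limma voom on recovered reads gave 815 genes with an unadjusted p under 0.05, against 820. Leaving out single libraries gave 0 to 1 genes past the threshold (1 without wild type 1, wild type 2, heterozygote 1 or heterozygote 3, none of them a member), 2333 to 4172 genes whose groups did not overlap (1630 with all libraries), and a median of the members from -0.97 to 0.022. Without the filter on low values, 2744 genes had groups that did not overlap, because more genes were counted. The members' median was -0.74 with a pseudocount of 0.1, -0.62 with TPM, -0.49 with quantile normalization and -0.82 with limma voom.

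The direction of 5 members changed when 1 library was left out, and the cause was not tested. Without heterozygote replicate 1, the log2 fold change was 0.035 for Ucp1, 0.0051 for Cidea, 0.087 for Elovl3, 0.11 for Adrb3 and 0.24 for Otop1. Elovl3 was at 0.20 without wild type replicate 2, and Adrb3 at 0.24 without wild type replicate 3 and at 0.082 without heterozygote replicate 3. Over all single omissions Ucp1 ran from -2.20 to 0.035, Cidea from -1.75 to 0.0051, Elovl3 from -0.96 to 0.20, Adrb3 from -1.06 to 0.24 and Otop1 from -1.57 to 0.24. Dio2 (-0.99 to -0.54), Fabp3 (-1.72 to -0.82), Ppargc1a (0.018 to 0.35) and Prdm16 (0.010 to 0.48) kept their sign. Zic1 had at most 2 reads in a library and so no direction to change (its difference on the log2(FPKM + 1) scale was between -0.0046 and 0.0092 over these omissions).

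The replicate numbers are shared between genotypes, but same-numbered libraries deviated together only for number 1 (correlations of 0.51, -0.088 and -0.34). The highest correlation, 0.55, was between wild type 3 and heterozygote 2, whose numbers differ. The file headers also number the heterozygotes otherwise than the titles used here. These correlations over all tested genes cannot decide whether the numbers pair the samples. With a replicate block, 0 genes passed, 738 had an unadjusted p under 0.05, and the members' median was again -0.48. The unadjusted limma p of Fabp3 was then 0.000311 (adjusted p = 0.790), against 0.0481 without the block. For Ucp1 the unadjusted limma p went from 0.406 to 0.0798, and for Dio2 from 0.0317 to 0.0518. With 3 libraries per genotype, depth did not limit the abundant members, while Zic1, and Elovl3 in wild type 1 and heterozygote 1, lay near the level of single reads.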
